A study of Mus musculus with 10 samples.

Results

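The S100 genes studied here were 10 members of the family of small EF-hand calcium-binding proteins: S100a1, S100a3, S100a4, S100a5, S100a6, S100a10, S100a11, S100a13, S100a14 and S100a16. They were chosen by symbol, and all 10 were found among the 55487 genes of the deposited table. RNA was measured by poly(A) RNA sequencing in 10 primary pancreatic tumours of KPF mice on a C57BL/6J background. Of these, 5 tumours, numbered 1 to 5, are labelled Grem1-deleted: their mice were dosed with tamoxifen (100 mg per kg body weight) daily over 5 days, starting at an age of 5 weeks. The other 5, also numbered 1 to 5, are labelled Grem1 wild-type, and their mice received the peanut oil vehicle instead. Mice were 6 to 12 weeks old, and tamoxifen itself cannot be told apart from the genotype because all mice of 1 group and none of the other received it. KPF mice carry the tumour-driving alleles in both groups, and the labels give neither those alleles nor the Cre driver of the Grem1 deletion.

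S100 proteins have no catalytic activity. Most of them bind calcium as dimers, change shape, and then dock to partner proteins such as annexins, myosin and p53, and some are released from cells and bind the receptors RAGE and TLR4. In human pancreatic cancer S100A4, S100A6, S100A10 and S100A11 are known as proteins of the malignant epithelium or the surrounding stroma. S100a4 in mice is also known as fibroblast-specific protein, although macrophages and other mesenchymal cells make it too.

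The 10 genes lie on mouse chromosome 3 in the GENCODE M21 annotation of GRCm38 (mm10). From S100a1 to S100a6, 8 of them stand within 113 kb (chr3:90511034-90624181), and S100a11 and S100a10 stand together within 44.2 kb (chr3:93520488-93564643). S100a1 is on the minus strand, and its start faces that of S100a13 at a distance of 42 bases. The other 8 members and S100a13 are on the plus strand. S100a4 (chr3:90603771-90606045) and S100a6 (chr3:90612882-90624181) have S100a5 alone of the members between them. Of the 584 exonic bases of S100a4, 302 are also annotated on the same strand to Gm42674, a predicted gene with a mean estimated count of 0 in these tumours.

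RefSeq (GRCm38.p6) gives promoters for 8 of the 10 members. Those of 3 members are shown, because S100a4 had the widest range of the tested members over the tumours, S100a6 is its near neighbour with a far narrower range, and S100a11 had the highest level per length. Each runs over the 250 bases before the annotated start on the plus strand, at chr3:90603520-90603769 for S100a4, chr3:90612644-90612893 for S100a6 and chr3:93520246-93520495 for S100a11. Capitals mark the motifs, which were searched on both strands. They were TATAAA, the core element of many promoters. The second was GGGCGG, which Sp1 can bind. The third was TGANTCA, which AP-1 can bind. No 2 of the marked motifs overlap.
S100a4: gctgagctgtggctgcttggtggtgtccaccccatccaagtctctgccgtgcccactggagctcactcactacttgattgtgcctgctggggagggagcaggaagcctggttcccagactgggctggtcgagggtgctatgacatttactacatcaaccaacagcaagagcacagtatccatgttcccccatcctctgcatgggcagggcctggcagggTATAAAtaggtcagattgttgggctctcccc
S100a6: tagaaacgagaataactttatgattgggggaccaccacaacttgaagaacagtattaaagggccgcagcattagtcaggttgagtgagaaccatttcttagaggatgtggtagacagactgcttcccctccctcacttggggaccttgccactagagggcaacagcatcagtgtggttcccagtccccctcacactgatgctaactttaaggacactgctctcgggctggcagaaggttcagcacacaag
S100a11: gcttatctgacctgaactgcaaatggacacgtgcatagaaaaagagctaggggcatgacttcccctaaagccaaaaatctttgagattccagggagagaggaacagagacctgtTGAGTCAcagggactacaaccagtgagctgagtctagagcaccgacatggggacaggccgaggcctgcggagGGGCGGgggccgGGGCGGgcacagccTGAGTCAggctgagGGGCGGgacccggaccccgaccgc
The S100a4 window holds TATAAA, which begins 31 bases before the start. This motif is found in 12.4% of 32851 mouse promoter windows of the same length. The S100a11 window holds GGGCGG at 64, 52 and 24 bases before the start, a motif of 32.7% of all windows, and TGAGTCA at 136 and 38 bases, a form of the motif found in 6.75% of all windows. The S100a6 window holds none of the 3 motifs. These are matches of letters and no measurement of binding.

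Levels are given as CPM, the estimated count scaled to a common library size. Library totals ran from 10159891 to 18571519 estimated counts, and mitochondrial genes took 1.37% to 2.44% of them. Grem1 itself, the targeted gene, averaged 40.2 ± 42.1 CPM in the tumours labelled deleted and 19.1 ± 15.2 CPM in wild-type tumours (SD, n = 5 each). Its mean was thus not lower where the label says it was deleted, and the group is therefore called labelled-deleted throughout. It had 47.6, 110, 12.6, 6.83 and 23.7 CPM in labelled-deleted tumours 1 to 5, against 3.97 to 43.1 CPM in wild-type tumours. Its log2 fold change was 1.08 (SE 0.79), and -0.40 (SE 0.71) without labelled-deleted tumours 1 and 2. Labelled-deleted tumour 1 stood apart: its score on the first principal component was -125.7, while the other 9 tumours lay between -12.3 and 37.99. Its 10 epithelial markers summed to 1929 CPM, against 3749 to 6310 CPM in the other 9 tumours, and its 6 proliferation markers summed to 914 CPM, against 212 to 426 CPM. All 10 epithelial, all 8 macrophage and all 6 endothelial markers had lower fitted values in the labelled-deleted group, while all 8 T cell and all 6 proliferation markers had higher ones. These directions were not shared by all tumours. The T cell sum was above the wild-type range (14.2 to 35.4 CPM) in labelled-deleted tumours 1, 3 and 5. In tumours 2 and 4 of that group it lay within the range. Cd3d, Cd3e, Cd3g, Cd2, Cd4 and Cd8a peaked in labelled-deleted tumour 3, and Trbc1 and Trbc2 in tumour 1. The proliferation sum was above the wild-type range (239 to 363 CPM) in labelled-deleted tumours 1 and 2 alone. In bulk tissue, fewer cells of a type and less RNA per cell cannot be told apart.

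Of the 10 members, 8 had enough counts to be tested between the groups. No member passed edgeR's quasi-likelihood test at a Benjamini-Hochberg adjusted p of 0.05, and neither did any of the 16565 genes tested (0%). At an unadjusted p under 0.05 stood 1 of the 8 members, S100a4, against 5.93% of all tested genes. The groups did not separate fully for any of the 8, against 0.93% of all tested genes. The fitted log2 fold changes of labelled-deleted over wild-type were above 0 for 3 members (S100a4, S100a6 and S100a10) and below 0 for 5 (S100a1, S100a11, S100a13, S100a14 and S100a16), with a median of -0.16, against 0.03 over all tested genes. DESeq2 called 0.0283% of 24714 genes and no member. In a single simulated table of this design (16349 genes), the edgeR test found 10% of true 1.5-fold changes, 48% of true 2-fold changes and 88% at 4-fold. Its genes were drawn independently, without variation shared between genes such as that of labelled-deleted tumour 1. The shares found in the real tumours may therefore differ.

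**Figure D1:**
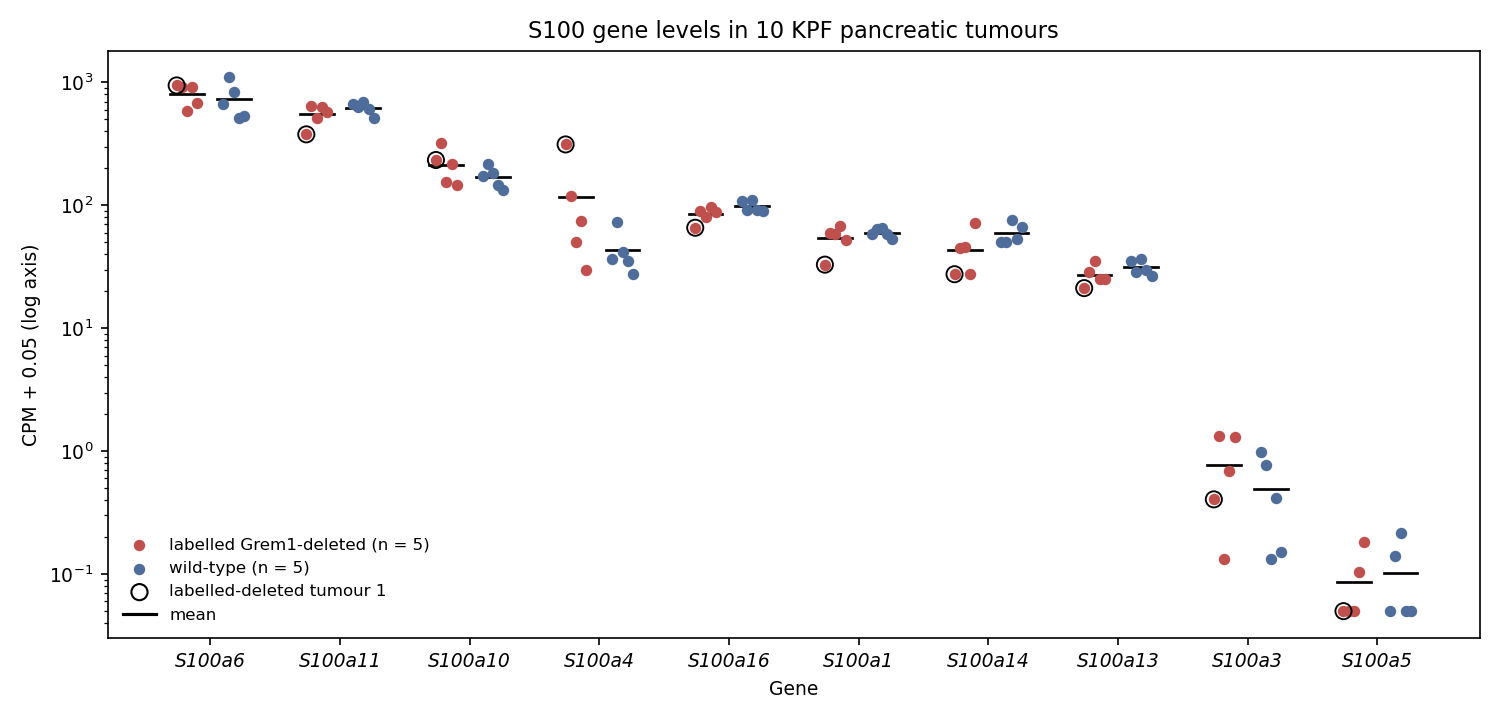
CPM of the 10 S100 genes in each tumour (log axis, 0.05 added so that values of 0 can be drawn), labelled-deleted tumours left of wild-type tumours for each gene, with the group mean as a line. Labelled-deleted tumour 1, circled, is the highest for S100a4 (313 CPM) and the lowest for S100a1, S100a11, S100a13, S100a14 and S100a16.

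Levels per length, in CPM per kb of annotated exon, set S100a11 first with a mean of 1145 over the 10 tumours and S100a6 second with 565. S100a11 was above S100a6 in 10 of 10 tumours, although their ranges over all tumours overlap. S100a10 followed at 159, S100a4 at 137, S100a1 at 82.2, S100a16 at 56.5, S100a13 at 40.9 and S100a14 at 29.8. Neighbours in this order were separated in all 10 tumours for S100a6 over S100a10, S100a1 over S100a16 and S100a16 over S100a13. S100a10 was above S100a4 in 9 tumours, all but labelled-deleted tumour 1. The order of S100a4 and S100a1 was not fixed, since S100a4 was the higher in 5 of 10, and S100a13 was above S100a14 in 8. S100a3 (0.103) and S100a5 (0.102) were at the bottom. Lengths of the longest transcript in place of all exons left the order of the means as it was but raised S100a6 to 987 and S100a10 to 281 CPM per kb. The order within tumours then changed: S100a11 was above S100a6 in 8 of 10 tumours, all but labelled-deleted tumour 1 and wild-type tumour 2, and S100a1 was above S100a16 in 5 of 10.

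The summed level of the 10 genes differed between the groups by less than the spread within them. It averaged 1902 ± 294 CPM in labelled-deleted tumours and 1817 ± 338 CPM in wild-type tumours (SD, n = 5 each). S100a6 alone made up 38.5% to 46.9% of this sum in labelled-deleted tumours and 33.5% to 48.7% in wild-type tumours. These shares are of CPM not divided by length, and in wild-type tumour 4 S100a11 had the larger share (39.4% against 33.5%).

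S100a4 encodes a calcium-dependent binder of non-muscle myosin IIA that is linked to cell motility and metastasis. Its level was 313, 119, 50.6, 74.4 and 29.6 CPM in labelled-deleted tumours 1 to 5, and 36.8, 73.9, 41.9, 35.3 and 27.8 CPM in wild-type tumours 1 to 5. Labelled-deleted tumours 1, 2 and 4 lay above every wild-type tumour, tumour 4 by little (74.4 against 73.9 CPM). Tumours 3 and 5 lay within the wild-type range. The mean was 117 ± 114 CPM in labelled-deleted tumours and 43.1 ± 17.9 CPM in wild-type tumours (SD, n = 5 each). The log2 fold change was 1.44 (SE 0.58; edgeR adjusted p = 0.759). By permutation of the labels over all assignments of the tumours to groups of 5, the exact two-sided p was 0.119, where 0.00794 is the smallest possible. The highest tumour was 11.3-fold above the lowest, and the standard deviation of its log2 CPM over the 10 tumours (1.08) was larger than that of 93.9% of tested genes. Labelled-deleted tumour 1 set much of the difference: its removal left 0.67 (SE 0.40) on the log2 scale, and removal of tumours 1 and 2 left 0.26 (SE 0.36). With the tumour ID number of the titles as a factor it was 0.36 (SE 0.39), a fit in which labelled-deleted tumours 1 and 4 add nothing because each is alone with its number.

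S100a6, or calcyclin, is a calcium sensor of proliferating cells and fibroblasts that binds the ubiquitin ligase partner CACYBP. Its levels were 946, 915, 585, 926 and 687 CPM in labelled-deleted tumours 1 to 5, and 670, 1099, 844, 513 and 538 CPM in wild-type tumours 1 to 5. The highest and the lowest of all 10 values were both in wild-type tumours, and the groups overlapped throughout. The log2 fold change was 0.15 (SE 0.23; edgeR adjusted p = 0.878), and it ran from -0.0015, without labelled-deleted tumours 1 and 2, to 0.33 over all alternatives.

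S100a10, or p11, differs from its relatives in that it no longer needs calcium. It forms a tetramer with annexin A2 and brings plasminogen and its activator to the cell surface. Its levels were 234, 320, 154, 217 and 147 CPM in labelled-deleted tumours 1 to 5, and 172, 218, 182, 145 and 134 CPM in wild-type tumours 1 to 5. Labelled-deleted tumours 1 and 2 were above all wild-type tumours, and the other 3 were within the wild-type range. The log2 fold change was 0.33 (SE 0.22; edgeR adjusted p = 0.759) and was 0.14 (SE 0.18) without tumour 2, which had the highest value, and 0.02 (SE 0.18) without tumours 1 and 2.

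S100a11, or calgizzarin, binds annexin A1 and takes part in the growth control of epithelial cells. Its levels were 378, 648, 511, 636 and 571 CPM in labelled-deleted tumours 1 to 5, and 665, 629, 690, 604 and 517 CPM in wild-type tumours 1 to 5. Tumour 1 of the labelled-deleted group was the lowest of the 10, tumour 3 of that group was just below the wild-type range, and the other 3 were inside it. The log2 fold change was -0.18 (SE 0.15; edgeR adjusted p = 0.781), and -0.07 (SE 0.11) without that tumour. Estimated counts of S100a11 were not whole numbers in 9 of 10 tumours, while those of the other 9 members were whole in all, so reads of S100a11 were shared with another sequence and its level is uncertain to that degree.

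S100a1 regulates the calcium pump SERCA2 in heart and skeletal muscle. In these tumours it had 32.9, 59.9, 58.0, 68.1 and 52.1 CPM in labelled-deleted tumours 1 to 5, and 58.4, 64.3, 65.4, 58.3 and 53.2 CPM in wild-type tumours 1 to 5. Labelled-deleted tumour 1 was again the lowest, and the other 4 lay between 52.1 and 68.1 CPM. The log2 fold change was -0.14 (SE 0.17; edgeR adjusted p = 0.830), and -0.01 (SE 0.10) without tumour 1. The summed level of 5 skeletal and heart muscle markers was at most 3.96 CPM in any tumour.

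S100a13 starts 42 bases from S100a1 and is known for carrying FGF1 and interleukin-1 alpha out of cells by a route that bypasses the Golgi. It measured 21.2, 28.5, 35.0, 25.2 and 25.1 CPM in labelled-deleted tumours 1 to 5, and 35.4, 28.6, 36.8, 30.0 and 26.7 CPM in wild-type tumours 1 to 5. Of the labelled-deleted values, 3 were below every wild-type value and the other 2 were inside the wild-type range. The log2 fold change was -0.22 (SE 0.15; edgeR adjusted p = 0.759; exact permutation p = 0.143), and it ran from -0.35 without labelled-deleted tumour 3 to -0.11 with the ID number as a factor, with -0.15 without labelled-deleted tumour 1.

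S100a14 is made mainly by epithelial cells in human tissue. Its values were 27.5, 44.8, 45.6, 27.8 and 71.6 CPM in labelled-deleted tumours 1 to 5, and 50.6, 50.4, 75.6, 53.4 and 66.7 CPM in wild-type tumours 1 to 5. Labelled-deleted tumours 1 to 4 were below every wild-type tumour, and tumour 5 was higher than 4 of the 5 wild-type tumours. The means were 43.4 ± 18.01 CPM in labelled-deleted tumours and 59.3 ± 11.3 CPM in wild-type tumours (SD, n = 5 each), and the log2 fold change was -0.45 (SE 0.26; edgeR adjusted p = 0.759; exact permutation p = 0.0952). Without labelled-deleted tumour 5 the log2 fold change was -0.71 (SE 0.21; edgeR adjusted p = 0.570). Without tumours 1 and 2 it was -0.30 (SE 0.28), and with the ID number as a factor -0.11 (SE 0.19). The 10 epithelial markers, all lower in the fit, summed to 1929 to 5442 CPM in labelled-deleted tumours and 5111 to 6310 CPM in wild-type tumours, and their part in the S100a14 values was not tested.

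S100a16 is broadly expressed in human tissue and binds less calcium than most of the family. It measured 65.7, 90.1, 80.4, 96.1 and 89.1 CPM in labelled-deleted tumours 1 to 5, and 108, 90.9, 110, 92.2 and 90.2 CPM in wild-type tumours 1 to 5. Labelled-deleted tumours 1, 2, 3 and 5 were below every wild-type tumour, 2 of them by little, and only tumour 4 of that group reached the wild-type range. The means were 84.3 ± 11.8 CPM in labelled-deleted tumours and 98.3 ± 9.98 CPM in wild-type tumours (SD, n = 5 each), and the log2 fold change was -0.22 (SE 0.11; edgeR adjusted p = 0.759; exact permutation p = 0.0873), or -0.15 (SE 0.09) without labelled-deleted tumour 1. It had the narrowest range of the tested members, with the highest tumour 1.68-fold above the lowest.

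S100a3 and S100a5 were close to the limit of detection. S100a3, a protein of the hair cuticle, had 1 to 19 counts per tumour, or 0.36, 1.28, 0.08, 0.64 and 1.25 CPM in labelled-deleted tumours 1 to 5 and 0.94, 0.73, 0.08, 0.37 and 0.10 CPM in wild-type tumours 1 to 5. S100a5, known from olfactory neurons, had at most 2 counts in any tumour, with a summed count of 3 in labelled-deleted tumours and 3 in wild-type tumours. It was listed at 0 in 6 tumours, 3 of each group, where a count of 0 allows up to 0.183 to 0.302 CPM (3 counts, counting error only). Neither passed the filter on low counts, and no difference between the groups could be detected at this depth. The 3 hair markers summed to at most 0.661 CPM in any tumour.

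**Figure D2:**
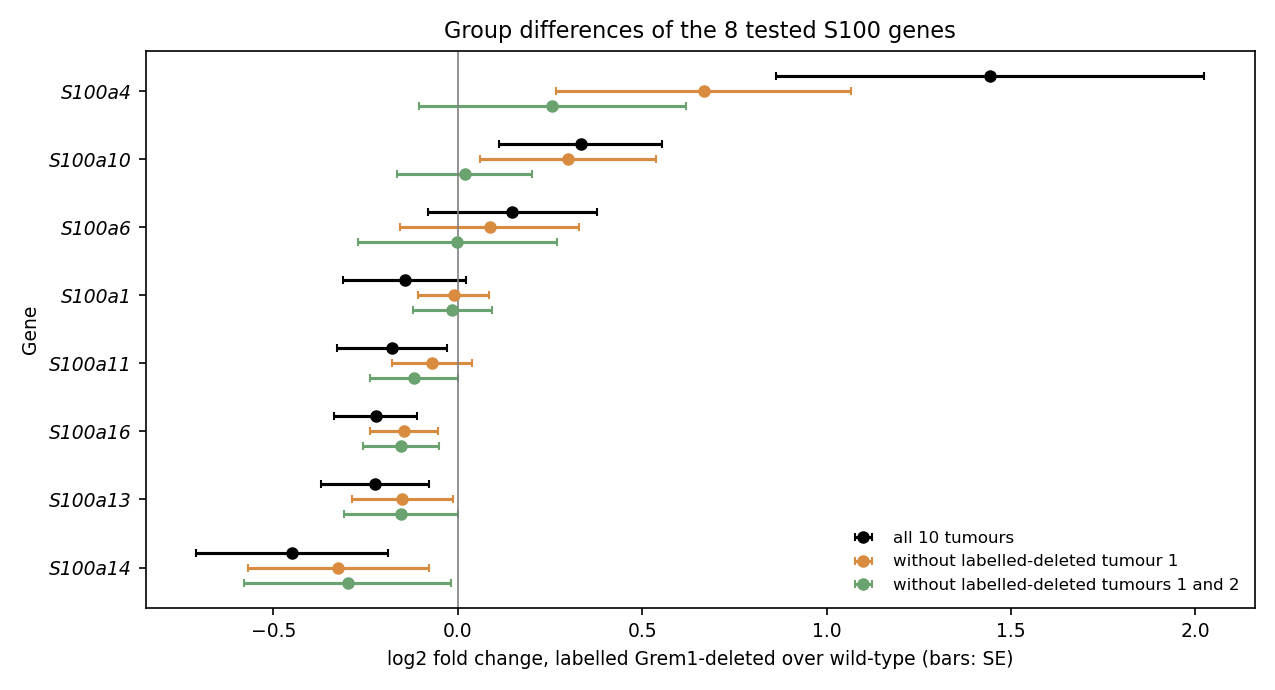
Fitted log2 fold change of labelled-deleted over wild-type tumours for the 8 tested S100 genes (points, with SE as bars), from all 10 tumours, without labelled-deleted tumour 1, and without labelled-deleted tumours 1 and 2. The S100a4 value shrinks to 0.67 and then to 0.26, and those of S100a10 and S100a6 end at 0.02 and -0.0015, while S100a13, S100a14 and S100a16 stay below 0.

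Across the 10 tumours, the members fell into sets that varied together, but the sets were not distinct without labelled-deleted tumour 1. Pearson's r and Spearman's rho of log2 CPM were computed for 28 pairs of members and for 32 relations of a member with a marker score (the mean log2 CPM of the epithelial, fibroblast, macrophage or T cell markers), with permutation p-values adjusted over all 60. Of these, 9 passed an adjusted p of 0.05 by Pearson's r and 7 by rho. The 10 points of each relation share 1 scaling of the libraries, and labelled-deleted tumour 1 lies at the end of many of them: without it, 1 of 60 passed, the pair S100a4 and S100a10. With the group mean subtracted from each tumour 4 passed: S100a1 with S100a11, S100a11 with S100a16, and the macrophage score with S100a4 and with S100a6. The p-values after subtraction came from shuffles of all 10 tumours across both groups. They make no allowance for the subtracted means and may be too small. The count of relations past the threshold ran from 1 to 10 as single tumours were left out.

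The first set was S100a4, S100a6 and S100a10. S100a4 and S100a10 had r = 0.790 and rho = 0.927 (permutation, adjusted p = 0.0483 for r and 0.0168 for rho), with r = 0.895 without the 2 tumours farthest on the S100a4 axis and 0.943 without labelled-deleted tumour 1. With group means subtracted, r was 0.745 and no longer past the threshold (permutation, adjusted p = 0.0934). S100a6 and S100a10 had r = 0.816 and rho = 0.867 (permutation, adjusted p = 0.0375 and 0.0342), and r = 0.844 without the 2 farthest, but 0.807 and not past the threshold with group means subtracted (adjusted p = 0.0585). S100a4 and S100a6, which are near neighbours on the chromosome, had r = 0.681 and rho = 0.770 and missed the threshold (permutation, adjusted p = 0.0984 for r). S100a6 and S100a10 are separated by 2930898 bases. S100a10 lies 28792 bases from S100a11, with which it had r = 0.0686.

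All 3 genes of this set ran against the macrophage score. With 8 markers, among them the receptor gene Csf1r and the complement genes C1qa and C1qb, the score had r = -0.881 with S100a4 (rho = -0.855), -0.819 with S100a6 (rho = -0.855) and -0.820 with S100a10 (rho = -0.891), at permutation adjusted p-values of 0.0174, 0.0375 and 0.0375 for r. Without the 2 tumours farthest on the score, labelled-deleted tumour 1 and wild-type tumour 4, r was -0.825, -0.797 and -0.879. The relations held the same sign within each group: r was -0.926, -0.891 and -0.790 over the 5 labelled-deleted tumours, and -0.691, -0.916 and -0.818 over the 5 wild-type tumours, given as values since 5 tumours are too few for a test. Without labelled-deleted tumour 1 the adjusted p-values were 0.128, 0.0890 and 0.0738 with r of -0.795, -0.851 and -0.859. With group means subtracted, the relation with S100a10 was not past the threshold either (r = -0.793; permutation, adjusted p = 0.0585). The direction was not particular to macrophages: r of all 3 genes with the epithelial, fibroblast and T cell scores was also below 0. None of those relations passed the threshold. For the T cell score r was -0.494 with S100a4, -0.518 with S100a6 and -0.545 with S100a10. The summed macrophage markers ranged from 1465 to 4179 CPM in labelled-deleted tumours and from 2984 to 5201 CPM in wild-type tumours, and their part in the group differences of S100a4, S100a6 and S100a10 was not tested.

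**Figure D3:**
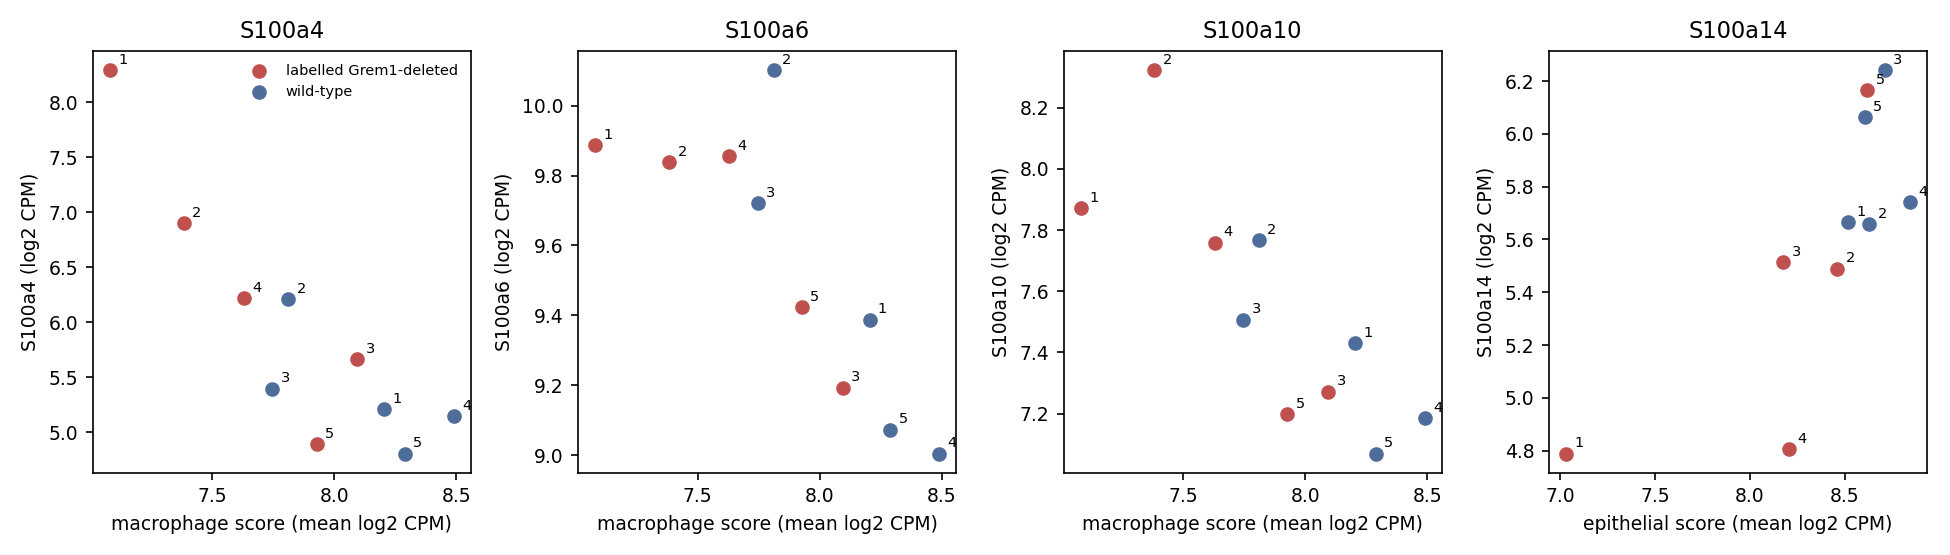
Log2 CPM of S100a4, S100a6 and S100a10 against the macrophage score and of S100a14 against the epithelial score (mean log2 CPM of the markers), 1 point per tumour, with the tumour number of its group beside it. S100a4, S100a6 and S100a10 fall as the macrophage score rises (r = -0.881, -0.819 and -0.820), and S100a14 rises with the epithelial score (r = 0.759).

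The second set was S100a1, S100a11 and S100a16. S100a11 and S100a16 had r = 0.921 and rho = 0.842 (permutation, adjusted p = 0.0066 and 0.0345), and S100a1 and S100a11 had r = 0.906 and rho = 0.806 (permutation, adjusted p = 0.0375 and 0.0526). These relations rest in part on labelled-deleted tumour 1, where all 3 genes were at their lowest: without the 2 farthest tumours, r was 0.684 (permutation p = 0.0515) for S100a11 with S100a16 and 0.688 (permutation p = 0.0594) for S100a1 with S100a11. The third pair, S100a1 and S100a16, had r = 0.808 and missed the threshold (permutation, adjusted p = 0.0759), with r = 0.408 without labelled-deleted tumour 1. Without that tumour S100a1 had r = 0.66 with S100a11. With the first set it then had r = 0.625 with S100a4, 0.706 with S100a6 and 0.576 with S100a10. In the same order, S100a11 then had 0.393, 0.629 and 0.59, and S100a16 had -0.145, 0.238 and 0.0918. S100a1 and S100a13, whose starts face each other over 42 bases, had r = 0.626 (permutation, adjusted p = 0.137) and 0.204 without labelled-deleted tumour 1. The epithelial score had r = 0.797 with S100a1, 0.814 with S100a11 and 0.795 with S100a16, none past the threshold, and without that tumour r was -0.226, 0.252 and 0.351, so these 3 values rest on it.

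S100a14 stood opposite S100a4. The pair had r = -0.780 and rho = -0.842 (permutation, adjusted p = 0.0483 and 0.0342), with r = -0.732 without the 2 farthest tumours and -0.649 without labelled-deleted tumour 1. With group means subtracted it was not past the threshold (r = -0.697; permutation, adjusted p = 0.112). S100a14 rose with the epithelial score, at r = 0.759 and rho = 0.794 (permutation, adjusted p = 0.0375 and 0.0597) and r = 0.773 without the 2 farthest tumours, but 0.650 and not past the threshold with group means subtracted (adjusted p = 0.138). S100a4 ran the other way, at r = -0.830 with the epithelial score, but missed the threshold (permutation, adjusted p = 0.0731) and had r = -0.441 without labelled-deleted tumour 1. Within the wild-type tumours alone, where the epithelial sum spans 5111 to 6310 CPM, r of S100a14 with the score was 0.159, and it was 0.715 within the labelled-deleted tumours.

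**Figure D4:**
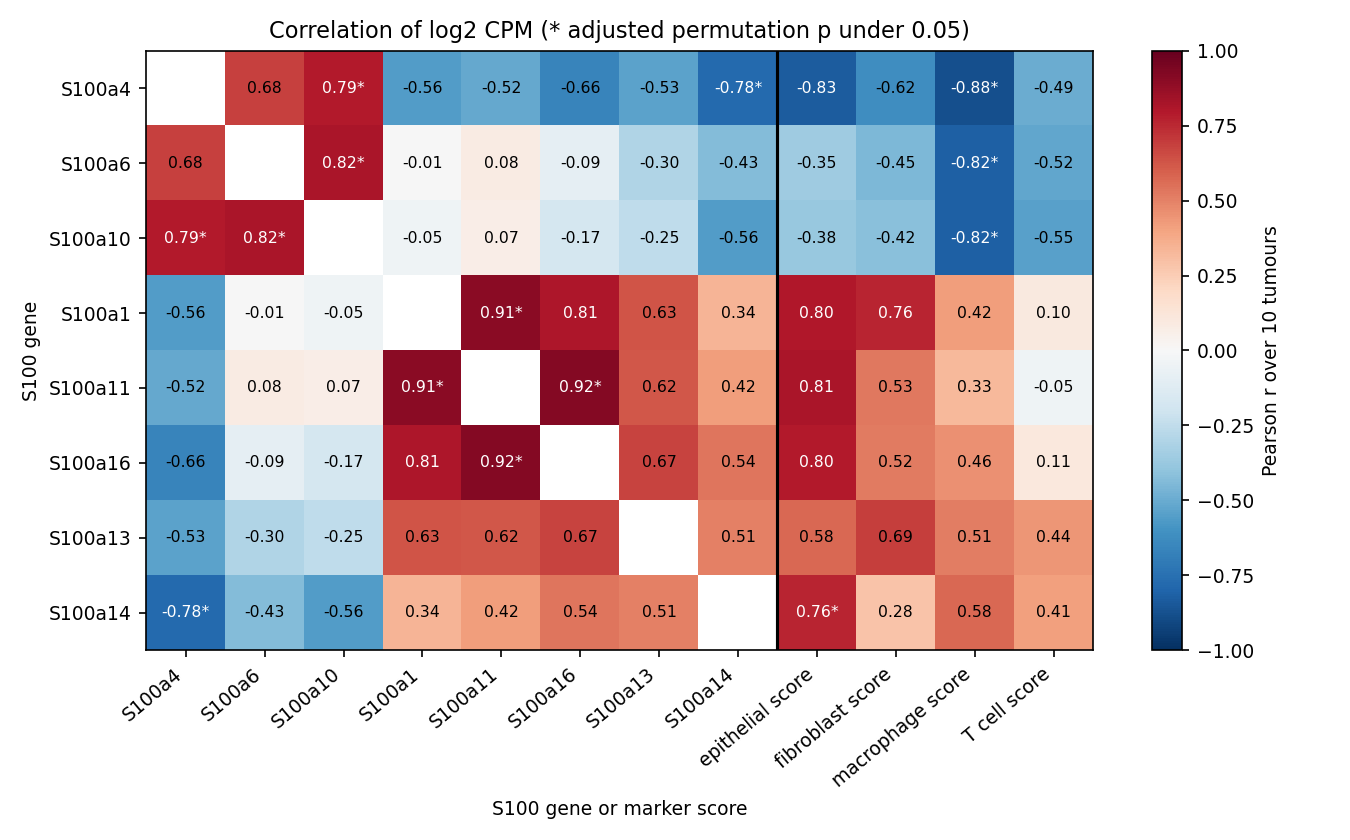
Pearson's r of log2 CPM over the 10 tumours between the 8 tested S100 genes (left block) and of each with 4 marker scores (right block), with an asterisk where the permutation p adjusted over 60 relations was under 0.05. S100a4, S100a6 and S100a10 form a red block at the upper left, S100a1, S100a11, S100a16 and S100a13 a second one, and the macrophage column is blue for the first set.

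Among 11133 genes with a mean of at least 10 CPM, the genes most like each member over the 10 tumours were listed by Pearson's r of log2 CPM, with no test, as they were chosen by that measure. S100a4 was most like Urgcp (r = 0.994), Vim (r = 0.982) and Nr2f1 (r = 0.971), and without labelled-deleted tumour 1 these values were 0.984, 0.956 and 0.949. Vim encodes vimentin, the intermediate filament of mesenchymal cells, and had 3376, 1724, 1057, 1714 and 852 CPM in labelled-deleted tumours 1 to 5, against 959, 1455, 1140, 887 and 758 CPM in wild-type tumours 1 to 5. Its high and low tumours followed those of S100a4, with labelled-deleted tumours 1, 2 and 4 above all wild-type tumours in both genes, tumour 4 by little for S100a4. The fibroblast score did not follow them: S100a4 had r = -0.624 with it (permutation, adjusted p = 0.172) and -0.0833 without labelled-deleted tumour 1. That tumour, the highest for S100a4, had the lowest sum of the 9 fibroblast markers, 8224 CPM, against 15168 to 28228 CPM in the other 9. Collagen genes make up most of this sum, and the markers were split. Col1a1, Col1a2, Col3a1, Dcn, Lum and Thy1 were at their lowest in that tumour. Fbln1 was below every wild-type tumour there, as it was in labelled-deleted tumours 2 and 5. Pdgfrb was at its highest in labelled-deleted tumour 1 (353 CPM). Pdgfra (227 CPM) was above every wild-type tumour (82.5 to 137 CPM) there, as it was in labelled-deleted tumours 2, 3 and 4. S100a6 was most like Psmd5, a proteasome assembly factor (r = 0.964), S100a10 most like Cct3, a chaperonin subunit (r = 0.973), and S100a13 most like Ndufa1, a subunit of respiratory complex I (r = 0.929). S100a11 and S100a16 shared their first gene, Rtn3, a reticulon of the endoplasmic reticulum, at r = 0.949 and 0.950. S100a14 was most like Slc26a2, a sulfate transporter (r = 0.943), Anxa4 (r = 0.925) and Tns4 (r = 0.908). S100a1 was most like Tshz3 (r = 0.973), and no member was among the 3 genes most like another.

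The partner genes of these proteins gave a background for the members. Of 17 partner genes, 16 were tested, 7 with a log2 fold change above 0 and 9 below 0, and none passed the adjusted threshold. At an unadjusted p under 0.05 stood 1 of 16, Ahnak, beside 5.93% of all tested genes. Ahnak encodes a giant scaffold protein that binds the S100A10 and annexin A2 complex. It had 1601, 1005, 753, 999 and 827 CPM in labelled-deleted tumours 1 to 5, and 595, 961, 674, 615 and 702 CPM in wild-type tumours 1 to 5. Labelled-deleted tumours 1, 2 and 4 were above all wild-type tumours, and the log2 fold change was 0.55 (SE 0.21; edgeR adjusted p = 0.759; exact permutation p = 0.0397), or 0.34 (SE 0.16) without tumour 1 and 0.29 (SE 0.19) with the ID number as a factor. Anxa2, the direct partner of S100a10, averaged 1006 ± 116 CPM in labelled-deleted tumours and 1073 ± 118 CPM in wild-type tumours (SD, n = 5 each), a log2 fold change of -0.09 (SE 0.11). Myh9, the heavy chain of non-muscle myosin IIA that S100A4 binds, had a log2 fold change of 0.21 (SE 0.14), with 0.12 without labelled-deleted tumour 4 and 0.02 with the ID number as a factor. Plau, the urokinase activator of plasminogen, had 0.76 (SE 0.53), which was 0.24 without labelled-deleted tumour 1 and -0.33 with the ID number as a factor. Plasminogen itself (Plg) had counts in 1 tumour alone. The receptors Ager (RAGE) and Tlr4 had log2 fold changes of 0.05 (SE 0.25) and -0.22 (SE 0.15), with Ager at 1.61 to 3.22 CPM in all 10 tumours.

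Outside the 10 members, 10 more genes were listed: the other S100 genes and S100pbp. Of these, 9 were in the table and 4 were tested (S100a8, S100a9, S100b and S100pbp), with none past the threshold. S100a8 and S100a9, the subunits of calprotectin made by neutrophils and monocytes, had 3.92 to 24.5 CPM and 2.58 to 32.8 CPM in labelled-deleted tumours, and 5.07 to 32.6 CPM and 5.98 to 39.9 CPM in wild-type tumours. Their log2 fold changes of -0.14 (SE 0.55) and -0.08 (SE 0.64) changed sign when single tumours were left out. Neutrophil markers summed to 71.5 to 174 CPM in labelled-deleted tumours and 80.1 to 389 CPM in wild-type tumours. Most of this sum was Ltf, at 48.9 to 110 CPM in labelled-deleted and 44.6 to 326 CPM in wild-type tumours. Ly6g was at most 0.328 CPM in any tumour. Of the 6 neutrophil markers tested, 2 were higher and 4 lower in the labelled-deleted group. S100pbp, which encodes a binding partner of S100P, had a log2 fold change of 0.34 (SE 0.16; edgeR adjusted p = 0.759; exact permutation p = 0.0556), with the highest value of 57.9 CPM in labelled-deleted tumour 1. Without that tumour it was 0.19 (SE 0.11), and with the ID number as a factor 0.13 (SE 0.13). S100b, of Schwann cells and glia, was at 1.78 to 4.70 CPM in labelled-deleted tumours and 2.14 to 5.74 CPM in wild-type tumours.

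S100g, the calbindin of the absorptive intestine, was high in 1 tumour and at 0 to 16 counts in the others. It had 142 CPM in labelled-deleted tumour 2, against at most 1.18 CPM in each of the other 9. The same tumour held 1540 CPM of 4 intestinal markers (Apoa4, Sis, Fabp2 and Lct), against at most 6.85 CPM elsewhere, and their part in its other S100 values was not tested. S100a2, S100a7a and S100z had under 1 CPM in each tumour, and S100a7l2 was listed at 0 in all 10, where a count of 0 allows up to 0.160 to 0.302 CPM (3 counts, counting error only).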

How the data were processed

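The study's 10 tumours were placed in groups of 5 by genotype and number in their titles. The labels call the samples bulk tissue, while the extraction protocol speaks of sorted cells. The authors deposited estimated counts per gene (7.96% not whole) and, per tumour, normalized log2 values for 25407 genes, used in 1 alternative. Per the submitters' processing notes, tools included HISAT2 2.2.1, RSEM 1.3.3 and DESeq2 1.32.0 on mm10. Neither annotation release nor strand setting is stated there.

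Counts were rounded, filtered (filterByExpr, minimum count 10), scaled by TMM and tested over the whole table with edgeR 4.0.16 (quasi-likelihood, robust, Benjamini-Hochberg at 0.05) in R 4.3.3. CPM was computed on TMM-scaled totals, and log2 CPM with prior count 2. Correlations used 100000 permutations with Python 3.11.15. Other fits used DESeq2 1.42.0, limma 3.58.1, other scalings and filters, blocks and left-out tumours. The steps were tested on simulated data. No 2 tumours agreed within sampling noise (lowest chi-square per degree of freedom 13.2). That tumours are separate animals is not stated beyond "biological replicates", so p-values measure the spread between these samples.

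The members, lists and tests were chosen with earlier results of these data known. Named genes were the members, the other S100 genes with S100pbp, a partner panel, Grem1 and the 3 genes most like each member. Tumour-to-tumour spread (biological coefficient of variation 0.355) limited precision more than counting did.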

Additional observations from a re-analysis of the deposited data

Results flagged for a closer look

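Among 32 genes in each group of 5 tumours, 6 single tumours lay far from the rest of their group (the gap to the nearest tumour, divided by the range, was above Dixon's 95% critical value, which chance exceeds in about 1 in 20 groups). None of them was a value of the 10 S100 members, of which S100a5, at no more than 0.165 CPM, was too low to be examined. S100g stood at 142 CPM in labelled-deleted tumour 2. Cacybp, whose protein binds S100A6, was at 93.5 CPM in labelled-deleted tumour 1. In wild-type tumours, Plat was at 431 CPM in tumour 1, Plau at 254 CPM in tumour 2 and Plaur, the lowest of its group, at 137 CPM in tumour 5. Plg was at 1.18 CPM in wild-type tumour 1 and at 0 in the other 9 tumours.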

How the results depend on the processing

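Alternatives that change the model alone leave the overlap of groups as it is and have no count of it. No alternative called a member at an adjusted p of 0.05, and the signs of 7 tested members were the same under all 21 alternatives. The S100a4 log2 fold change ran from 0.26 to 1.71, S100a10 from 0.02 to 0.44, S100a13 from -0.35 to -0.11, S100a14 from -0.71 to -0.11 and S100a16 from -0.28 to -0.15. S100a6 was the exception, at -0.0015 without labelled-deleted tumours 1 and 2. DESeq2 called 7 genes, none a member. Same-numbered tumours had correlations from -0.0157 to 0.387. Differently numbered tumours were not compared in this way, so these values cannot settle whether the replicate numbers pair the tumours. With the replicate block no member was called, and S100a4 was at 1.00 (SE 0.45) and S100a14 at -0.52 (SE 0.18). Between 0 and 1 of the members separated the groups fully as single tumours were left out, against 1.44% to 2.76% of all tested genes, and the 1 (S100a16 without labelled-deleted tumour 4, S100a14 without tumour 5) is fixed by removing the only tumour of its group that overlapped. With longest-transcript lengths, levels were 0.185 for S100a3, 987 for S100a6, 281 for S100a10 and 81.0 CPM per kb for S100a16. Relations past the threshold numbered 4 with group means subtracted and 1 to 10 without single tumours.

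Signs also turned for genes other than the members. With the tumour ID number as a factor, S100a8 was at 0.46, S100a9 at 0.58, Anxa1 at -0.015, Plau at -0.33 and Trp53 at 0.0031. Without labelled-deleted tumours 1 and 2, S100a8 was at 0.13, S100a9 at 0.21, Fgf1 at 0.16, Trp53 at 0.0014 and Grem1 at -0.40. As single tumours were left out, S100a8 ran from -0.38 to 0.21, S100a9 from -0.33 to 0.27, Sugt1 from -0.0852 to 0.036, Fgf1 from -0.45 to 0.0089, Ager from -0.078 to 0.13 and Plat from -0.35 to 0.088. The cause was not tested.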
